A study of Mus musculus with 12 samples.

Results

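The genes described here are 10 of the 55487 genes in the deposited table of mouse retina, taken by exact gene name. They are the NF-κB subunits *Rela*, *Relb*, *Nfkb1* and *Nfkb2*, the inhibitor genes *Nfkbia*, *Nfkbie* and *Bcl3*, the feedback genes *Tnfaip3* and *Birc3*, and the ligand gene *Tnf*. RNA-seq was made from 12 libraries, 2 for each of 6 groups, with poly(A) RNA pooled from more than 3 retinas in each library. WT retinas came from C57BL/6J mice, sh*Pax6* retinas from eyes given 2 μL of AAV2.7m8 carrying pU6-shPax6-GFP, and JNK3 KO retinas from *Jnk3*-/- mice. Mice were 2 months old by the study's text, and each of the 3 kinds of eye received 1 μL of PBS or 1 μL of 40 mM NMDA (40 nmol), with retinas collected a day later. NMDA overactivates glutamate receptors and kills retinal ganglion cells (RGCs), and the study asked whether PAX6 and the kinase JNK3 act in this response. The U6 promoter drives the hairpin in any infected cell, and a library with the shScramble vector was not among the 12, so the infection itself and the knockdown cannot be told apart. The *Jnk3*-/- deletion is present in every cell of those mice.

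NF-κB is a family of dimeric transcription factors, made of RELA, RELB and c-REL and of the products of *Nfkb1* (p105 and p50) and *Nfkb2* (p100 and p52). In a resting cell IκB proteins, encoded by *Nfkbia* and *Nfkbie* among others, hold the dimers in the cytoplasm. Receptors for TNF, IL-1 or microbial products activate the IκB kinase, which marks IκB for destruction and frees the dimers. The freed dimers induce their own inhibitors, among them *Tnfaip3* (A20, a ubiquitin-editing enzyme that ends the signal). They also induce *Birc3* (cIAP2, a ubiquitin ligase at the TNF receptor). In the injured retina the pathway is best known in glia and in invading leukocytes, which make *Tnf* and chemokines.

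Levels are given as FPKM, fragments scaled by transcript length and by library size, so they can be compared between genes per length. From the steps between low values, each library held about 21300000 to 26800000 fragments, an approximation in which 61.0% to 85.0% of the low values came out whole within 0.12. The 2 WT NMDA libraries stood apart, with summed FPKM of 805627 and 820180 against 541210 to 576922 in the other 10. The 4 rod marker genes summed to between 16555 and 28870 FPKM in every library, as the retina label requires. With PBS, *Pax6* measured 173 and 177 FPKM in WT against 94.6 and 92.8 in sh*Pax6* retinas, and with NMDA 55.4 and 53.8 against 67.5 and 58.7. *Mapk10*, which encodes JNK3, measured 42.8 and 50.7 FPKM in WT against 9.47 and 8.75 in JNK3 KO retinas with PBS, and 8.98 and 6.00 against 6.65 and 13.8 with NMDA. The targeted genes were therefore lower in their genotype, without overlap, only among PBS libraries. Nothing ties the 2 libraries of a group to separate animals beyond the pools, so p-values measure the spread between these libraries.

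The promoters of the inhibitor and feedback genes are shown first, because feedback of NF-κB on its own genes runs through κB sites near their start. The 250 bases before each start were searched on both strands for the κB consensus, and matches are in capitals below. RefSeq (GRCm38.p6) gave 11 promoters for 8 of the 10 genes, and none for *Relb* and *Nfkb1*. The *Nfkbia* window (chr12:55492648-55492897, minus strand) held 1 match, at bases -29 to -20 before the start. *Nfkbie* (chr17:45555450-45555699, plus strand) held 1 match, at -106 to -97. *Tnfaip3* held 2 in the first of its 2 windows, at -125 to -116 and at -12 to -3, of which the stretch outside annotated exons is shown (chr10:19015411-19015547, minus strand). *Nfkb2* held 3 matches before the first of its 3 starts, 2 of them overlapping, and only a site of 30 bases is shown there because it lies in an annotated first exon (chr19:46304693-46304722, plus strand). The window before its second start (chr19:46305445-46305694, plus strand) held 1 match, at -236 to -227, and that before the third (chr19:46305680-46305929, plus strand) held 1, at -225 to -216. *Bcl3* (chr7:19822771-19823005, minus strand) held none, nor did *Birc3*, *Tnf*, *Rela* and the second *Tnfaip3* window, which says only that the letters are not in these 250 bases. Of 32851 mouse promoters, 7.3% held at least 1 match and 1.0% at least 2.
Nfkbia: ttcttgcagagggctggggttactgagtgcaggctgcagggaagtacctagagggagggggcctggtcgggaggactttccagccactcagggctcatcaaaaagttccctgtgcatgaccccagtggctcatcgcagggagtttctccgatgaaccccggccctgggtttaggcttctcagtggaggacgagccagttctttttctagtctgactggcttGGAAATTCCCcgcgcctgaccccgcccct
Nfkb2, site before the first start: gtcacGGGAATTCCCCccctcggggggccg
Nfkb2, before the second start: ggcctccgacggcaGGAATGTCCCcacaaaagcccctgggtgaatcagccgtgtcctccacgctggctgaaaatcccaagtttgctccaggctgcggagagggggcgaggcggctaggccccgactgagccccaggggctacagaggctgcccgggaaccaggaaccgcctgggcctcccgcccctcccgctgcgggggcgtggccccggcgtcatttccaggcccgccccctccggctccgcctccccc
Nfkbie: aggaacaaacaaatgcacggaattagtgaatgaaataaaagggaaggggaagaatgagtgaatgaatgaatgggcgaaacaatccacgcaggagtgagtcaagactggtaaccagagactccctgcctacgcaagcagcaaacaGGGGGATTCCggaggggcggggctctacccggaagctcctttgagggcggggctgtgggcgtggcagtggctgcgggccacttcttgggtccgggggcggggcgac
Tnfaip3: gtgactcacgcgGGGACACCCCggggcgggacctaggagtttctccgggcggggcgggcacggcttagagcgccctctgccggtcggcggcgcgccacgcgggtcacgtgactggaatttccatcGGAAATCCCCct
Bcl3: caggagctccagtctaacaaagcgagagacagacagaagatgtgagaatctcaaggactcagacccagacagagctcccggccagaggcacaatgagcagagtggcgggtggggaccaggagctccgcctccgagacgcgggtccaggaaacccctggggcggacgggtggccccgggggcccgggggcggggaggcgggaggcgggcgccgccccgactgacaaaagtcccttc

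The 10 genes were first counted against all 16471 genes tested, with limma on log2(FPKM + 0.1) and a Benjamini-Hochberg adjusted p under 0.05. All 10 passed the filter on low values, which asked for a mean over 1 FPKM in 1 or more of the 6 groups. In WT retinas 5 rose after NMDA and 1 fell, where 26.0% of all genes rose and 33.8% fell. In sh*Pax6* retinas 6 rose and 1 fell, against 19.1% and 11.0% of all genes. In JNK3 KO retinas 0 rose and 1 fell, against 4.33% and 6.10% of all genes, and at an unadjusted p under 0.05 by limma 1 was higher and 2 were lower. The genes that rose were *Relb*, *Nfkb2*, *Nfkbia*, *Nfkbie* and *Bcl3* in WT, and *Relb*, *Nfkb2*, *Nfkbia*, *Bcl3*, *Birc3* and *Tnf* in sh*Pax6* retinas. The gene that fell was *Tnfaip3* in both, and *Tnf* in JNK3 KO retinas. With the spread of the 4 sh*Pax6* libraries alone, *Bcl3* and *Tnf* were called there, and *Relb*, *Nfkb2*, *Nfkbia*, *Tnfaip3* and *Birc3* did not pass (limma adjusted p = 0.0527 to 0.117). The median log2 fold change of the 10 genes was 1.13 for WT, 1.26 for sh*Pax6* and -0.14 for JNK3 KO, beside -0.09, 0.10 and -0.01 for all genes.

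The responses were then compared with each other. For 1 of the 10 genes the WT response to NMDA exceeded the sh*Pax6* response and for 3 it fell short of it, where 18.3% and 31.4% of all genes differed in these directions. Against the JNK3 KO response it was larger for 6 genes and smaller for 1, beside 23.5% and 27.9% of all genes. Under PBS, 1 gene was higher and 3 were lower in sh*Pax6* than in WT retinas, against 5.36% and 11.2% of all genes. Between JNK3 KO PBS and WT PBS 0 genes passed by limma, against 1.10% of all genes higher and 0.407% lower, and 2 did at an unadjusted p under 0.05, 1 in each direction. Both differences between responses use the same 4 WT libraries, so they are not independent of each other.

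**Figure D1:**
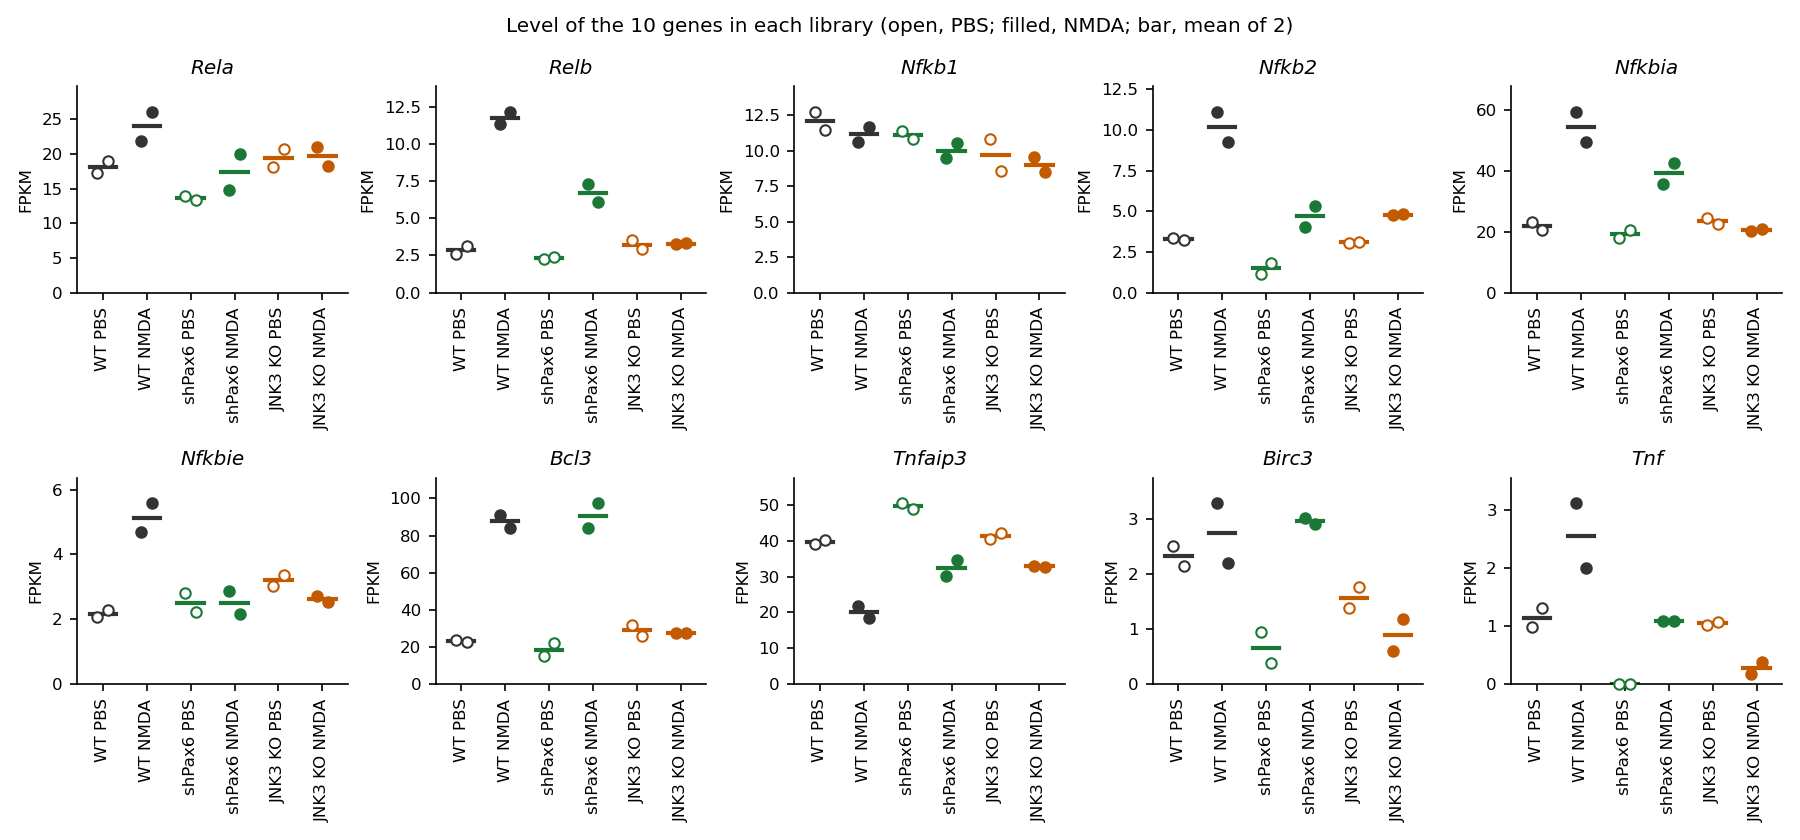
FPKM (vertical axes, each from 0) of the 10 genes in the 12 libraries, with open points for PBS, filled points for NMDA and a bar at the mean of the 2 libraries. *Relb*, *Nfkbia* and *Bcl3* stand up in WT NMDA and sh*Pax6* NMDA and not in JNK3 KO NMDA, *Tnfaip3* is lower with NMDA than with PBS in each genotype, and *Tnf* is at 0 in both sh*Pax6* PBS libraries.

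Among the subunits, *Relb* and *Nfkb2* changed and *Rela* and *Nfkb1* did not pass. *Relb* (ENSMUSG00000002983, chr7:19606217-19629438) encodes the partner of p52 in the non-canonical pathway. *Relb* measured 2.56 and 3.10 FPKM with PBS and 11.4 and 12.2 FPKM with NMDA in WT, 2.24 and 2.37 against 7.33 and 6.12 FPKM in sh*Pax6*, and 3.52 and 2.93 against 3.23 and 3.30 FPKM in JNK3 KO retinas. Every NMDA library thus exceeded both PBS libraries in WT and sh*Pax6* retinas, whereas the JNK3 KO libraries overlapped. WT showed a rise of 4.06-fold (log2 fold change 2.02, standard error 0.18, limma adjusted p = 1.06e-05) and sh*Pax6* retinas one of 2.83-fold (1.50, adjusted p = 0.000295), and the JNK3 KO value was 0.02 (95% interval -0.38 to 0.43). The WT response exceeded that of JNK3 KO by 2.00 on the log2 scale (95% interval 1.43 to 2.57, limma adjusted p = 0.000156). Its excess over sh*Pax6*, 0.52, did not pass (95% interval -0.05 to 1.09, limma adjusted p = 0.116).

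*Nfkb2* (ENSMUSG00000025225, chr19:46304320-46312385) encodes p100, which restrains RELB until it is cut to p52. *Nfkb2* measured 3.35 and 3.21 FPKM with PBS and 11.1 and 9.27 FPKM with NMDA in WT, 1.16 and 1.82 against 4.04 and 5.35 FPKM in sh*Pax6*, and 3.05 and 3.14 against 4.79 and 4.81 FPKM in JNK3 KO retinas. No NMDA library overlapped a PBS library of its genotype, and the WT NMDA libraries stood above all others. The log2 fold change was 1.60 for WT (standard error 0.23, limma adjusted p = 0.000274) and 1.61 for sh*Pax6* (adjusted p = 0.000908), a difference of -0.01 (95% interval -0.76 to 0.74). In JNK3 KO retinas it was 0.62 and did not pass (95% interval 0.09 to 1.15, limma adjusted p = 0.139). The WT response exceeded it by 0.98 (limma adjusted p = 0.0323), a call lost on TPM (0.40, adjusted p = 0.362), without the filter (adjusted p = 0.0561), on 75th percentile scaling (0.79, adjusted p = 0.129) and without any 1 of 7 libraries, the 2 of WT PBS, WT NMDA replicate 1 and the 4 of JNK3 KO (adjusted p up to 0.101). Under PBS *Nfkb2* was lower in sh*Pax6* than in WT retinas (-1.12 on the log2 scale, limma adjusted p = 0.0116), which did not pass with the spread of those groups alone (adjusted p = 0.141) or without WT PBS replicate 1, WT PBS replicate 2 or sh*Pax6* PBS replicate 1 (adjusted p up to 0.0789). Exons of *Nfkb2* share 299 bases with *Psd* on the opposite strand, listed between 75.3 and 109 FPKM, and 531 bases with the antisense AC114539.1, between 0.75 and 2.60 FPKM. Whether counting used the strand is not given in the sources used here, so the level of *Nfkb2* is uncertain to that extent.

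*Rela* (ENSMUSG00000024927, chr19:5637483-5648130) and *Nfkb1* (ENSMUSG00000028163, chr3:135584655-135691547) encode p65 and the precursor of p50, the canonical pair. *Rela* measured 17.2 and 19.0 FPKM with PBS and 21.9 and 26.1 FPKM with NMDA in WT, 14.0 and 13.3 against 14.9 and 20.0 FPKM in sh*Pax6*, and 18.2 and 20.7 against 21.1 and 18.2 FPKM in JNK3 KO retinas. Its groups did not overlap in WT and sh*Pax6* retinas, but the log2 fold changes of 0.40 and 0.33 did not pass (limma adjusted p = 0.0531 and 0.143), and the WT value was -0.17 on TPM. The WT value passed without WT NMDA replicate 1 (0.52, adjusted p = 0.0484 by limma) or without either sh*Pax6* NMDA library (0.40, adjusted p = 0.0254 and 0.0255), and the sh*Pax6* value without sh*Pax6* NMDA replicate 1 (0.55, adjusted p = 0.0364). The gene value of *Nfkb1* stayed between 8.47 and 12.7 FPKM in the 12 libraries, though its transcripts made it up differently in WT NMDA, as given below. Its log2 fold change was -0.12 in WT, -0.15 in sh*Pax6* and -0.10 in JNK3 KO retinas, with 95% intervals that reached from -0.47 to 0.22 at most, and the WT value was -0.69 on TPM (limma adjusted p = 0.00196), close to the TPM median of all genes, -0.66, and 0.17 after a correction for transcript length. The differences between responses were 0.06 for *Rela* and 0.04 for *Nfkb1* between WT and sh*Pax6* retinas, and 0.38 and -0.02 between WT and JNK3 KO retinas, none of which passed. On TPM these 4 differences were -0.46, -0.48, -0.21 and -0.61, of which the last, for *Nfkb1* between WT and JNK3 KO retinas, passed (limma adjusted p = 0.0266).

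The inhibitor genes rose in WT retinas. *Nfkbia* (ENSMUSG00000021025, chr12:55489410-55492647) encodes IκBα, the fastest feedback inhibitor of the pathway, and its promoter match is shown above. *Nfkbia* measured 23.2 and 20.5 FPKM with PBS and 59.5 and 49.7 FPKM with NMDA in WT, 18.1 and 20.6 against 35.8 and 42.6 FPKM in sh*Pax6*, and 24.5 and 22.5 against 20.1 and 21.0 FPKM in JNK3 KO retinas. The NMDA libraries were the higher in WT and sh*Pax6* retinas, without overlap, but the lower with JNK3 KO. The rise was 2.49-fold in WT (log2 1.31, standard error 0.13, limma adjusted p = 1.77e-05) and 2.02-fold in sh*Pax6* retinas (1.01, adjusted p = 0.000380), and the JNK3 KO value of -0.19 did not pass (adjusted p = 0.400). The WT response exceeded that of JNK3 KO by 1.51 (95% interval 1.11 to 1.91, limma adjusted p = 0.000104), which was 0.92 on TPM and 0.89 after the length correction and still passed, whereas its excess over sh*Pax6*, 0.30, did not pass (95% interval -0.10 to 0.70) and was -0.22 on TPM.

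*Nfkbie* (ENSMUSG00000023947, chr17:45555703-45563169), which encodes IκBε, a slower inhibitor, separated WT from both other genotypes. *Nfkbie* measured 2.07 and 2.28 FPKM with PBS and 4.69 and 5.58 FPKM with NMDA in WT, 2.80 and 2.21 against 2.87 and 2.16 FPKM in sh*Pax6*, and 3.03 and 3.37 against 2.73 and 2.52 FPKM in JNK3 KO retinas. Only the WT NMDA libraries stood above 3.37 FPKM. The log2 fold change was 1.20 in WT (standard error 0.22, limma adjusted p = 0.00120), 0.00 in sh*Pax6* (95% interval -0.50 to 0.50) and -0.28 in JNK3 KO retinas (95% interval -0.78 to 0.23). The WT response exceeded that of sh*Pax6* by 1.20 (limma adjusted p = 0.0113) and that of JNK3 KO by 1.47 (adjusted p = 0.00350). On TPM the first difference was 0.70 and did not pass (limma adjusted p = 0.0919), and the second was 0.91 (adjusted p = 0.0364).

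*Bcl3* (ENSMUSG00000053175, chr7:19808462-19822770) encodes a nuclear IκB-like protein that binds p50 and p52 dimers and can activate transcription. It reached the highest levels of the 10 genes, at 91.1 and 84.1 FPKM in WT NMDA and at 83.9 and 97.4 FPKM in sh*Pax6* NMDA, against 23.7 and 22.7 FPKM with PBS in WT and 15.0 and 21.9 FPKM in sh*Pax6* PBS. In JNK3 KO retinas it lay at 31.6 and 26.1 FPKM in PBS and at 27.8 and 27.5 FPKM in NMDA, so these groups overlapped. The rise was 3.76-fold in WT (log2 1.91, standard error 0.17, limma adjusted p = 9.45e-06) and 4.96-fold in sh*Pax6* retinas (2.31, adjusted p = 1.44e-05). The difference between these, -0.40, did not pass (95% interval -0.93 to 0.13), but it did on TPM (-0.93, limma adjusted p = 0.00867), after the length correction (-1.05, adjusted p = 0.00786) and without sh*Pax6* PBS replicate 2 (-0.67, adjusted p = 0.0142). Without that library *Bcl3* was also lower in sh*Pax6* than in WT retinas under PBS (-0.63, limma adjusted p = 0.0190), which with all libraries did not pass (-0.36, adjusted p = 0.189). The WT response exceeded that of JNK3 KO by 1.96 (limma adjusted p = 0.000109), which was 0.94 after the length correction (adjusted p = 0.0136).

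The isoform values of *Bcl3* are descriptions with no test. Its transcript of 755 bases was put at 61.0 and 60.2 FPKM in WT NMDA and at 33.7 and 28.5 FPKM in sh*Pax6* NMDA, whereas that of 1850 bases was put at 18.7 and 18.2 and at 35.5 and 46.4 FPKM. The shorter transcript was thus the higher in WT NMDA, and the longer one the higher in sh*Pax6* NMDA, though the values were close in replicate 1 (33.7 and 35.5 FPKM). Gene values in WT NMDA also moved with length, with a median log2 fold change of 1.03 under 1 kb and 0.52 at 1 to 2 kb. The part of this trend in the isoform values was not tested. A transcript of *Nfkb1* of 1924 bases, annotated as subject to nonsense-mediated decay, was put at 8.07 and 7.94 FPKM in WT NMDA and at or below 2.38 FPKM in the other 10 libraries. The gene value in WT NMDA was 10.6 and 11.7 FPKM, so most of it was put on this transcript, and the steady gene value does not hold for the other transcripts. A retained-intron transcript of *Rela* (786 bases) was listed at 0 in both WT NMDA libraries and between 1.46 and 7.38 FPKM elsewhere. The 2 libraries of a group could differ in these estimates, as in *Tnfaip3*, whose transcript of 4422 bases was put at 0.49 and 6.12 FPKM in WT NMDA.

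The feedback gene *Tnfaip3* (ENSMUSG00000019850, chr10:19000910-19015657) had lower values after NMDA in all 3 genotypes. *Tnfaip3* measured 39.0 and 40.1 FPKM with PBS and 21.8 and 18.6 FPKM with NMDA in WT, 50.5 and 49.0 against 30.3 and 34.8 FPKM in sh*Pax6*, and 40.5 and 42.2 against 33.0 and 32.7 FPKM in JNK3 KO retinas. No NMDA library overlapped a PBS library of its genotype. The log2 fold change was -0.97 in WT (standard error 0.09, limma adjusted p = 1.75e-05), -0.61 in sh*Pax6* (adjusted p = 0.00118) and -0.33 in JNK3 KO retinas, which did not pass (adjusted p = 0.0574). The WT call was lost after the correction for transcript length, where the value was -0.07 (limma adjusted p = 0.585), while that of sh*Pax6* retinas was -0.62 there (adjusted p = 0.00113) and that of JNK3 KO retinas passed (-0.42, adjusted p = 0.0235). The JNK3 KO value, -0.33, also passed without either WT NMDA or either sh*Pax6* NMDA library (adjusted p from 0.0347 by limma).

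Differences of *Tnfaip3* between genotypes depended on the same correction. The WT response was below that of sh*Pax6* (difference -0.36, limma adjusted p = 0.0465) and below that of JNK3 KO (-0.65, adjusted p = 0.00275), and after the length correction these were 0.55 (adjusted p = 0.0102) and 0.36 (adjusted p = 0.0636), of the opposite sign. The first was lost too with a pseudocount of 1 (limma adjusted p = 0.0508), without the filter (0.0665), on 75th percentile scaling (0.105), with the spread of those groups alone (0.0973) and with the replicate block (0.0632), so that it kept its sign and passed only on TPM among the 7 other settings. It was also lost without any 1 of 10 libraries, all but WT NMDA replicate 1 and sh*Pax6* NMDA replicate 1 (adjusted p up to 0.130). Under PBS *Tnfaip3* was higher in sh*Pax6* than in WT retinas by 0.33 (limma adjusted p = 0.0424), which was 0.14 on 75th percentile scaling (adjusted p = 0.483) and did not pass without the filter, on TPM, with the spread of those groups alone and with the replicate block (adjusted p = 0.0509 to 0.0664), nor without any 1 of the 8 WT PBS, sh*Pax6* PBS and JNK3 KO libraries (adjusted p up to 0.182).

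*Birc3* (ENSMUSG00000032000, chr9:7848699-7873186) was a low gene, with 2.51 and 2.14 FPKM under PBS and 3.29 and 2.21 FPKM after NMDA in WT. It lay at 0.94 and 0.38 against 3.03 and 2.92 FPKM in sh*Pax6*, and at 1.38 and 1.77 against 0.60 and 1.18 FPKM in JNK3 KO retinas. The sh*Pax6* PBS libraries were thus the low ones, and NMDA brought sh*Pax6* retinas to the range of WT NMDA. The log2 fold change was 2.12 in sh*Pax6* (standard error 0.43, limma adjusted p = 0.00582), 0.21 in WT (95% interval -0.77 to 1.19; -0.35 on TPM and -0.07 without WT NMDA replicate 1) and -0.81 in JNK3 KO retinas (95% interval -1.79 to 0.17). The WT response was smaller than that of sh*Pax6* (difference -1.91, limma adjusted p = 0.0282), a call lost without the filter (adjusted p = 0.0585) and without WT PBS replicate 1, WT PBS replicate 2, WT NMDA replicate 2, sh*Pax6* PBS replicate 2 or either sh*Pax6* NMDA library (adjusted p up to 0.0922). Under PBS the sh*Pax6* libraries were lower than WT (-1.77, limma adjusted p = 0.0233), which was lost with the spread of those groups alone (adjusted p = 0.142) and without WT PBS replicate 1, WT PBS replicate 2 or sh*Pax6* PBS replicate 2 (adjusted p up to 0.134). About 16 fragments stood behind the lowest value, 0.38 FPKM.

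*Tnf* (ENSMUSG00000024401, chr17:35199381-35202007), the ligand that both starts the canonical pathway and is induced by it, had the lowest mean of the 10 genes in every group. *Tnf* measured 0.98 and 1.31 FPKM with PBS and 3.11 and 1.99 FPKM with NMDA in WT, and 1.02 and 1.07 against 0.18 and 0.38 FPKM in JNK3 KO retinas. In sh*Pax6* PBS it was listed at 0 in both libraries, and after NMDA at 1.09 FPKM in both. The direction after NMDA was therefore upward in WT and sh*Pax6* and downward in JNK3 KO retinas, and none of these pairs of groups overlapped. The WT log2 fold change of 1.07 did not pass (95% interval 0.11 to 2.03, limma adjusted p = 0.0539), although it passed with a pseudocount of 1 (0.71, adjusted p = 0.0153) and without any 1 of 7 libraries, WT NMDA replicate 2 and all but the JNK3 KO PBS libraries among those outside WT (adjusted p from 0.0291). The JNK3 KO value of -1.64 passed (standard error 0.42, limma adjusted p = 0.0409), but not without any 1 of the 2 WT PBS and 4 JNK3 KO libraries (adjusted p up to 0.180) nor under 6 other settings. The WT response exceeded that of JNK3 KO by 2.71 (limma adjusted p = 0.00433). For sh*Pax6* retinas the rise passed (limma adjusted p = 0.000293), as did the difference of the responses of WT and sh*Pax6* (adjusted p = 0.00734) and the lower level under PBS (adjusted p = 0.000591). With a pseudocount of 1 that difference did not pass (limma adjusted p = 0.353). These p-values set a group listed at 0 against others and so rest on the pseudocount, and no fold is given against a group listed at 0. Behind the *Tnf* values stood about 33 and 49 fragments in WT PBS, 118 and 71 in WT NMDA, and 7 and 14 in JNK3 KO NMDA, and in sh*Pax6* PBS 3 fragments would have been worth 0.081 and 0.095 FPKM.

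**Figure D2:**
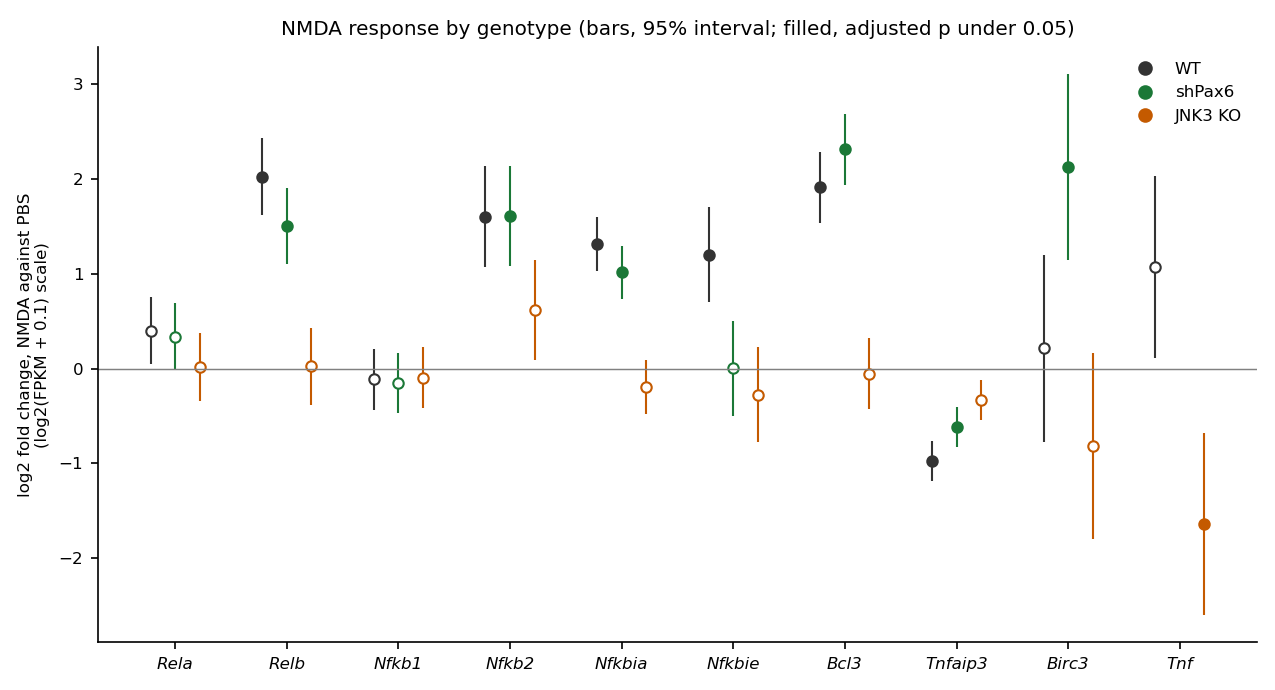
Log2 fold change of NMDA against PBS (vertical axis) for the 10 genes (horizontal axis) in WT, sh*Pax6* and JNK3 KO retinas, with 95% intervals from limma and filled points for an adjusted p under 0.05. The WT and sh*Pax6* points of *Relb*, *Nfkb2*, *Nfkbia* and *Bcl3* lie above 1, the JNK3 KO points of *Relb* and *Bcl3* lie at 0.02 and -0.05, and *Tnf* in sh*Pax6* retinas is not drawn because its PBS libraries are listed at 0.

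Sums of marker genes of other cell types differed between the groups too. The 6 neutrophil markers summed to 212 to 235 FPKM in WT PBS, 1947 to 1985 in WT NMDA, 5.16 to 6.09 in sh*Pax6* PBS, 66.4 to 73.0 in sh*Pax6* NMDA, 156 to 169 in JNK3 KO PBS and 13.1 to 13.9 in JNK3 KO NMDA. In WT 4 of them were higher with NMDA, *Ly6g*, *Retnlg*, *S100a8* and *S100a9*. *Csf3r* was lower there (18.2 and 18.9 against 17.0 and 14.2 FPKM), and *Cxcr2* overlapped (6.03 and 5.69 against 6.42 and 5.33). All 6 were above 0 in at least 1 library of WT PBS, WT NMDA and JNK3 KO PBS. *Ly6g*, a defining surface marker, was listed at 0 in both libraries of the other 3 groups. The groups with the lowest sums, sh*Pax6* PBS and JNK3 KO NMDA, were also those with the lowest *Tnf* and *Birc3*. *Birc3* was highest in sh*Pax6* NMDA (mean 2.98 FPKM, against 1.58 in JNK3 KO PBS), although neutrophil sums were lower there than in JNK3 KO PBS. The 5 monocyte markers summed to 136 to 150 FPKM in WT PBS and 196 to 197 in WT NMDA, to 41.4 to 42.6 and 288 to 297 in sh*Pax6*, and to 99.1 to 106 and 71.4 to 71.5 in JNK3 KO retinas. These sums too were lowest in sh*Pax6* PBS and JNK3 KO NMDA. The higher sum in WT NMDA came mostly from *Lyz2* (97.7 and 106 against 158 and 155 FPKM), and *Ccr2* and *Ly6c2* were lower in both WT NMDA libraries. The 8 markers of microglia and macrophages summed to 34.9 to 37.0 and 56.7 to 59.0 FPKM in WT, to 35.2 to 35.8 and 128 to 134 in sh*Pax6*, and to 35.6 to 38.0 and 29.5 in JNK3 KO retinas, none of them at 0 in a whole group. In WT only *Cd68* (7.25 and 8.17 against 33.6 and 35.4 FPKM) and *Aif1* were higher with NMDA, and the other 6, *P2ry12*, *Tmem119* and *Cx3cr1* among them, were lower in both libraries. Against the lower sums in JNK3 KO retinas, *Cd68* (7.78 and 8.37 against 15.4 and 14.9 FPKM) and the monocyte marker *Ly6c2* (1.90 and 2.33 against 4.03 and 4.16 FPKM) were higher with NMDA there. Monocyte and microglial sums were thus highest in sh*Pax6* NMDA, and neutrophil sums in WT NMDA. The 4 lymphocyte markers were listed at 0 in both WT NMDA libraries and summed to at most 0.66 FPKM in the other groups but sh*Pax6* NMDA, where the sums were 2.73 and 6.74. The 5 RGC markers summed to 319 to 338 FPKM in WT PBS and 258 to 281 in WT NMDA, to 103 to 105 and 28.6 to 36.3 in sh*Pax6*, and to 322 to 359 and 79.7 to 81.9 in JNK3 KO retinas. In WT *Thy1* overlapped (142 and 145 against 136 and 154 FPKM). The other 4 were lower with NMDA in WT, *Slc17a6* at 21.5 and 20.6 against 2.34 and 2.91 FPKM. All 5 were lower in JNK3 KO retinas, *Slc17a6* at 16.8 and 17.0 against 4.33 and 4.48 FPKM. Sums of 5 Müller glia markers were 578 to 582 FPKM with PBS against 336 to 337 with NMDA in WT, 774 to 784 against 623 to 643 in sh*Pax6*, and 622 to 631 against 523 to 539 in JNK3 KO retinas. Against these sums, *Rlbp1* was higher with NMDA in WT, *Slc1a3* in sh*Pax6*, and *Slc1a3*, *Aqp4* and *Rlbp1* in JNK3 KO retinas. Sums of 3 markers of the retinal pigment epithelium were 43.6 to 48.7 against 71.2 to 73.3 FPKM in WT, 48.9 to 55.1 against 12.2 to 12.9 in sh*Pax6*, and 32.7 to 35.3 against 39.7 to 40.4 in JNK3 KO retinas. Of these markers, *Rpe65* was lower with NMDA in WT. With NMDA the 4 endothelial markers summed higher in each genotype, from 5.31 to 11.5 FPKM over the PBS libraries and from 10.2 to 18.4 over the NMDA libraries. In WT *Pecam1* and *Cldn5* were higher, and *Tek* and *Cdh5* were lower. The part of these cells in the levels of the 10 genes was not tested, and in bulk RNA a change in the number of cells of a type and a change in RNA per cell cannot be told apart.

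**Figure D3:**
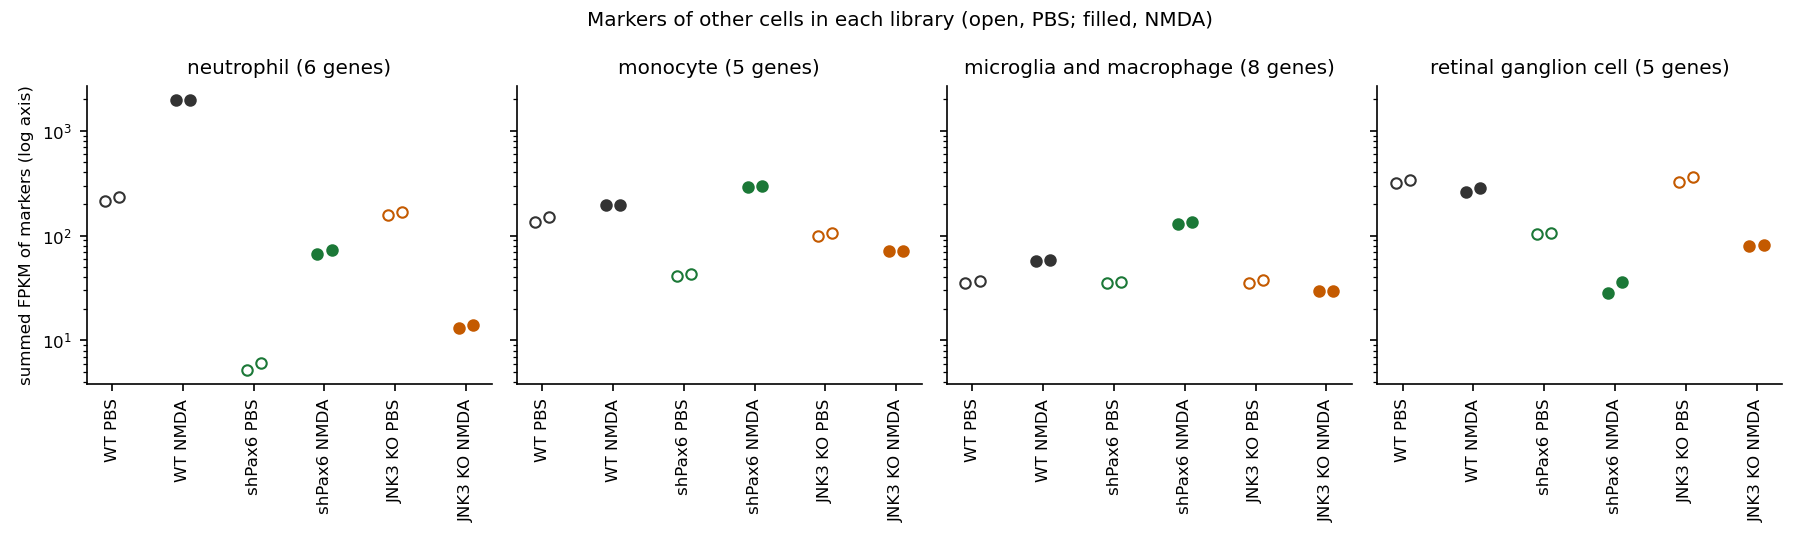
Summed FPKM (log axis) of marker genes of neutrophils, monocytes, microglia and macrophages, and retinal ganglion cells in the 12 libraries, with open points for PBS and filled points for NMDA. Neutrophil sums run from 5.16 in sh*Pax6* PBS to 1985 in WT NMDA.

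Values in WT NMDA libraries also moved with transcript length. After NMDA the median log2 fold change of all genes in WT retinas was 1.03 for spliced lengths under 1 kb, 0.52 at 1 to 2 kb, -0.14 at 2 to 3 kb, -0.59 at 3 to 4 kb and -1.17 above that, whereas in sh*Pax6* retinas these medians lay between -0.07 and 0.20 and in JNK3 KO retinas between -0.11 and 0.16. *Bcl3* (1066 bases, the mean weighted by FPKM) and *Nfkbia* (1493 bases) belong to a class with a positive median, and *Tnfaip3* (4367 bases), with -0.97, to the class with the lowest. *Relb* (2091 bases), *Nfkbie* (2458 bases) and *Nfkb2* (3111 bases) rose in classes with negative medians. After the correction for each library's trend on length, the WT log2 fold change was 1.95 for *Relb*, 2.06 for *Nfkb2*, 1.35 for *Nfkbie*, 1.01 for *Bcl3* and 0.80 for *Nfkbia*, each with a limma adjusted p of 0.00108 or less. On TPM, which moved the WT median of all genes from -0.09 to -0.66, the same genes kept a positive value, from 0.65 for *Nfkbie* (limma adjusted p = 0.0304) to 1.47 for *Relb* (adjusted p = 6.91e-05).

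The share of calls that were upward among all genes depended on the scale too. In WT retinas it was 43.5%, with 5 genes up and 1 down among the 10, and it was 21.4% on TPM, with 5 up and 2 down, *Nfkb1* being added. After the length correction 6 were up and 0 down, since *Rela* passed (0.45, limma adjusted p = 0.0443) and *Tnfaip3* did not. In sh*Pax6* retinas the share was 63.4%, and 47.2% on 75th percentile scaling and 47.4% after the length correction, with 6 up and 1 down throughout. For the difference between WT and sh*Pax6* responses it was 36.8%, 16.3% on TPM (0 genes larger and 4 smaller in WT) and 53.5% after the length correction (2 larger and 3 smaller). For WT against JNK3 KO responses it was 45.7%, 23.2% on TPM (5 larger and 2 smaller). Under PBS the share higher in sh*Pax6* was 32.4%, 8.55% on 75th percentile scaling (0 higher and 3 lower) and 46.6% after the length correction, and that higher in JNK3 KO was 73.1%, 56.6% on TPM and 46.4% on 75th percentile scaling, with 0 of the 10 genes passing there.

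**Figure D4:**
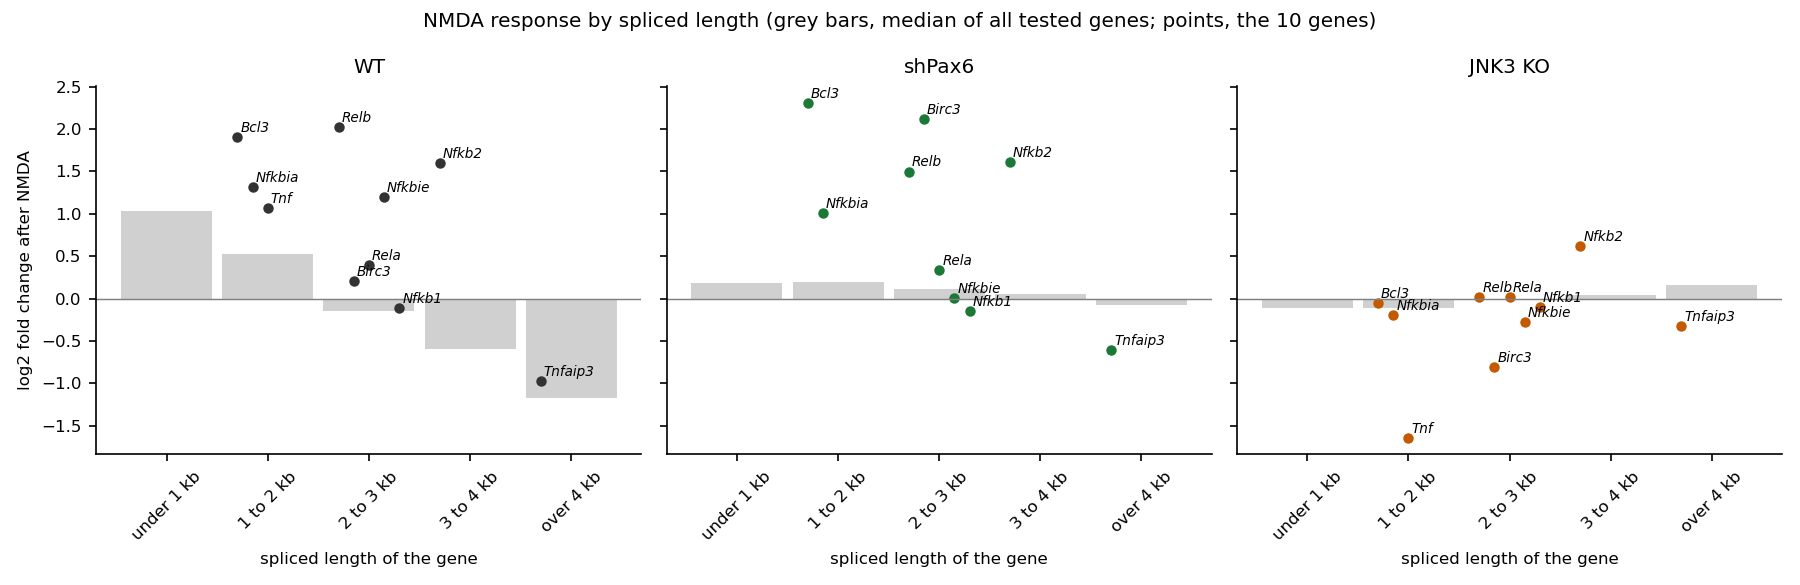
Log2 fold change after NMDA (vertical axes) of the 10 genes (points) by class of spliced length, with grey bars for the median of all tested genes in the class, in WT, sh*Pax6* and JNK3 KO retinas. The WT bars fall from 1.03 under 1 kb to -1.17 over 4 kb, and *Relb*, *Nfkbie* and *Nfkb2* lie there on the opposite side of 0 from the bar of their class. *Tnf* is not drawn for sh*Pax6* retinas.

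The rest of the pathway was counted in a list of 82 genes, of which 79 were tested. In WT retinas 33 of them rose and 22 fell after NMDA, in sh*Pax6* retinas 41 rose and 0 fell (2 at an unadjusted p under 0.05 by limma, and 0 on TPM, 1 on 75th percentile scaling and 3 after the length correction at the adjusted one), and in JNK3 KO retinas 3 rose and 12 fell. Of all genes tested, 26.0% rose and 33.8% fell in WT, 19.1% and 11.0% in sh*Pax6*, and 4.33% and 6.10% in JNK3 KO retinas. At 19 up and 27 down on TPM and 38 up and 10 down after the length correction, the WT split followed the scale. Their median log2 fold change was 0.46 in WT (-0.09 on TPM), 0.73 in sh*Pax6* and 0.02 in JNK3 KO retinas, beside the medians of all genes given above. Among 21 tested target genes 16 rose (18 at an unadjusted p under 0.05) and 0 fell in WT by limma, adjusted or not (10 and 3 on TPM, 14 and 2 after the length correction), 16 rose and 0 fell in sh*Pax6* (0 unadjusted), and 1 rose and 5 fell in JNK3 KO retinas. *Cxcl2*, a chemokine for neutrophils, measured 0.98 and 1.37 FPKM with PBS and 36.0 and 36.9 FPKM with NMDA in WT, 0 in both sh*Pax6* PBS libraries and 26.9 and 17.4 FPKM in sh*Pax6* NMDA, and 1.56 and 0.37 against 0.24 and 0.07 FPKM in JNK3 KO retinas. *Ccl2*, a chemokine for monocytes, lay at 4.61 and 4.39 FPKM in WT PBS, 138 and 126 in WT NMDA, 0.91 and 2.20 in sh*Pax6* PBS and 31.4 and 37.6 FPKM in sh*Pax6* NMDA. Its log2 fold change was 4.84 for WT and 4.50 for sh*Pax6*, and the 0.53 of JNK3 KO did not pass.

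Ligands and receptors followed in part. Of all genes, 26.0% rose and 33.8% fell in WT, 19.1% and 11.0% in sh*Pax6*, and 4.33% and 6.10% in JNK3 KO retinas. Of 7 ligand genes tested 3 rose in WT, 4 rose in sh*Pax6* and 3 fell in JNK3 KO retinas. *Il1b*, which encodes the cytokine IL-1β, measured 15.9 and 18.6 FPKM with PBS and 89.7 and 82.1 FPKM with NMDA in WT, 1.3 and 0.54 against 4.74 and 7.63 FPKM in sh*Pax6*, and 14.9 and 13.0 against 0.86 and 0.67 FPKM in JNK3 KO retinas. These levels were highest in WT NMDA, as were the neutrophil sums. They were lowest in sh*Pax6* PBS and JNK3 KO NMDA, the 2 groups with the lowest neutrophil sums and the lowest monocyte sums. *Tnfsf12*, which encodes the ligand TWEAK, rose by 1.07 on the log2 scale in WT retinas, and its receptor gene *Tnfrsf12a* rose by 2.26 in WT, 1.84 in sh*Pax6* and 0.93 in JNK3 KO retinas. *Tnfrsf12a* measured 16.2 and 17.0 FPKM with PBS and 82.1 and 77.8 FPKM with NMDA in WT, 17.3 and 17.3 against 59.7 and 64.4 FPKM in sh*Pax6*, and 15.7 and 16.2 against 30.9 and 30.1 FPKM in JNK3 KO retinas. It thus rose in JNK3 KO retinas as well. *Ltbr*, the lymphotoxin β receptor of the non-canonical pathway, rose by 1.18 in WT (0.61 on TPM, which did not pass) and 1.54 in sh*Pax6* retinas. Of 9 receptor genes 4 rose and 3 fell in WT (1 and 3 on TPM, 5 and 1 after the length correction), and 4 rose in sh*Pax6* retinas, where 0 fell by limma, adjusted or not.

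Signal transducers and brakes moved in both directions in WT retinas, as did all genes (26.0% up and 33.8% down, against 19.1% and 11.0% in sh*Pax6* retinas). Of 11 kinase genes 0 rose by limma (1 unadjusted) and 7 fell (2 and 3 after the length correction), with *Tab3*, an adaptor of the kinase TAK1, at -1.74 (-0.50 after the length correction) and *Chuk*, which encodes IKKα, at -1.34, whereas in sh*Pax6* retinas 5 rose and 0 fell by limma (1 unadjusted). Of 16 adaptors and ubiquitin ligases 6 rose and 4 fell in WT (3 and 5 on TPM). *Sharpin* and *Rnf31*, which encode parts of the linear ubiquitin ligase, had values of 1.67 and 1.61 in WT, against 0.05 and 0.08 in sh*Pax6* retinas, which did not pass, and *Sharpin* did not pass after the length correction (0.61). Of 11 other brakes 2 rose and 6 fell in WT (5 and 2 after the length correction), with *Itch* at -1.78 (-0.74 after the length correction) and *Cyld*, a deubiquitinase, at -1.56, the latter lost after the length correction (-0.37). Of the 4 other subunit and IκB genes 2 rose and 2 fell in WT (2 and 0 after the length correction), with *Nfkbib* (IκBβ) at 1.40 and *Nfkbid* at 1.34, the latter not passing on TPM (0.80). *Nfkbib* measured 16.9 and 19.1 FPKM with PBS and 52.1 and 43.3 FPKM with NMDA in WT, and its log2 fold change was 0.46 in sh*Pax6*, which passed, and -0.15 in JNK3 KO retinas, which did not.

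**Figure D5:**
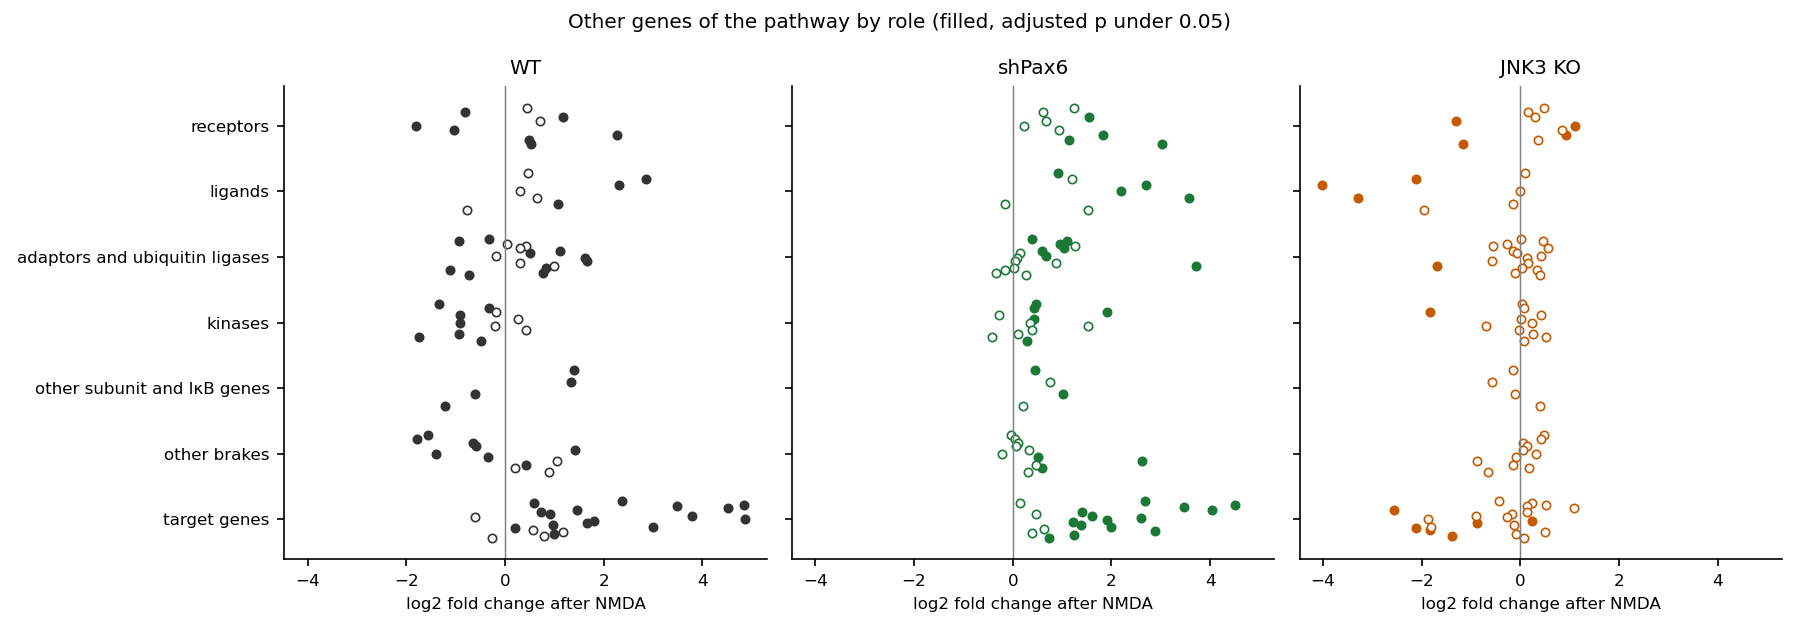
Log2 fold change after NMDA (horizontal axes) of the other tested genes of the pathway by role in WT, sh*Pax6* and JNK3 KO retinas, with filled points for a limma adjusted p under 0.05. Filled target genes lie above 0 in WT (16 points) and sh*Pax6* retinas, where *Cxcl1*, *Cxcl2* and *Il6* are not drawn because they are listed at 0 with PBS, and 5 of the 6 filled ones in JNK3 KO retinas lie below 0.

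Across the 12 libraries, the genes with a pattern most like that of *Nfkbia* by Pearson's r of log2(FPKM + 0.1) were *Lin7b* (0.99), *Fam162a* (0.99) and *Fam110a* (0.98). For *Nfkb2* they were *Pdia6*, *Hsp90b1* and *Arhgdia* (each 0.98), and for *Tnfaip3* *Gnb1*, *Nt5e* and *Dpf3* (each 0.98). Among the 10 genes, r was highest between *Relb* and *Nfkbia* (0.96) and lowest between *Nfkb2* and *Tnfaip3* (-0.93). These coefficients describe 12 points that fall into 6 groups of 2.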

How the data were processed

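Poly(A) RNA from pooled mouse retinas was sequenced as paired reads, and the authors aligned it with STAR (2.7.1a) to GRCm38.p6 and estimated expression with RSEM (1.3.3), as named in the submitters' processing notes and the methods. The deposited values are FPKM per gene and per transcript for all 12 libraries, and the authors' own ChIP-seq data were not used here. Strand use in counting is not given in the sources used here. TPM was recomputed by dividing each library's FPKM by its sum.

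Values were analysed as log2(FPKM + 0.1) with limma (3.58.1, R 4.3.3), with 1 coefficient a group, all 12 libraries in 1 fit (6 residual degrees of freedom) and a variance trend, over the 16471 genes with a group mean above 1 FPKM. Adjusted p is Benjamini-Hochberg over all these genes, with a threshold of 0.05. A fold change on this scale understates the change of low genes. Differences between responses are interaction contrasts in the same fit. On simulated data of the WT response, 156 of 200 genes changed by 2 on the log2 scale were recovered over 16471 genes, with 6 false calls. Far more genes were called in the WT data (26.0% up and 33.8% down), so these numbers are not an error rate of the calls given here. Spliced lengths came from GENCODE M21, which matched 55141 of 55487 genes, and the length correction removed a lowess trend (span 0.3) from each library over 16442 genes.

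The 10 genes and the pathway and marker lists were chosen with earlier results of these data known. Pathway genes are named by rule, up to 2 in each role with the largest absolute WT change among those called, without overlap of the groups and with a mean above 1 FPKM in both, and for likeness the 3 genes with the highest Pearson's r. Alternatives were a pseudocount of 1, no filter (27761 genes), TPM, 75th percentile scaling, the spread of the groups compared alone, a replicate block, the length correction and each library left out. Same-numbered replicates were checked for shared deviations between groups (r from -0.097 to 0.086).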

Additional observations from a re-analysis of the deposited data

Results flagged for a closer look

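The NMDA responses of WT and sh*Pax6* retinas differed for *Nfkbie* (1.20 on the log2 scale, limma adjusted p = 0.0113), *Tnfaip3* (-0.36, adjusted p = 0.0465) and *Birc3* (-1.91, adjusted p = 0.0282) in the test of the difference itself. Of all genes, 18.3% had a larger and 31.4% a smaller response in WT. *Nfkbie* did not pass on TPM (limma adjusted p = 0.0919), nor *Birc3* without the filter (0.0585). *Tnfaip3* kept its sign and passed only on TPM among the 7 other settings. *Tnf* also differed between these responses, without a size because it was listed at 0 in both sh*Pax6* PBS libraries, and this difference did not pass with a pseudocount of 1 (limma adjusted p = 0.353).

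The responses of WT and JNK3 KO retinas differed for 7 of the 10 genes in the same kind of test, where 23.5% of all genes had a larger and 27.9% a smaller response in WT. The differences were 2.00 for *Relb*, 0.98 for *Nfkb2*, 1.51 for *Nfkbia*, 1.47 for *Nfkbie*, 1.96 for *Bcl3*, -0.65 for *Tnfaip3* and 2.71 for *Tnf*. After the correction for transcript length those of *Nfkbia* and *Bcl3* were 0.89 and 0.94 and still passed (limma adjusted p = 0.00446 and 0.0136), and on TPM that of *Nfkb2* was 0.40 and did not pass (adjusted p = 0.362). That of *Tnfaip3* changed sign after the correction for transcript length, as did its difference between WT and sh*Pax6* retinas.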

How the results depend on the processing

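Single values kept their direction and their side of the threshold 413 times under the other settings, where 18 changed sign, 29 lost a call and 9 gained one, and 721 times with 1 library left out, where these numbers were 23, 43 and 17. Of 26 calls 11 were kept throughout. Among the 26, the calls kept under every alternative were *Relb*, *Nfkb2*, *Nfkbia*, *Nfkbie* and *Bcl3* in WT and *Bcl3* in sh*Pax6* retinas. The differences between WT and JNK3 KO of *Relb*, *Nfkbia*, *Nfkbie*, *Bcl3* and *Tnf* were kept too. Apart from the 26, the *Tnf* rise in sh*Pax6* retinas and its lower level there under PBS also passed under the other settings. Both rest on the pseudocount. Depth limits *Tnf* and *Birc3* most. Where no cause is given, the cause was not tested.

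Of the 10 genes, 7 changed in sh*Pax6* retinas, but 2 with the spread of the groups compared alone. Fewer libraries estimate the spread there in every genotype. The count in that setting was 6 in WT and 1 in JNK3 KO retinas, the latter with *Tnfaip3* in place of *Tnf*. Among all genes, calls up and down went from 3151 and 1816 to 675 and 301 in sh*Pax6*. In WT they went from 4286 and 5569 to 4379 and 5236, and in JNK3 KO from 713 and 1005 to 641 and 935. Replicates differed most in sh*Pax6* PBS and NMDA (median 0.22 and 0.25 on the log2 scale, against 0.11 to 0.18 elsewhere). The cause of the loss was not tested. The 1 call in JNK3 KO retinas, *Tnf*, became 0 with a pseudocount of 1, without the filter, on 75th percentile scaling and with the replicate block. With the spread of those groups alone and after the length correction *Tnf* was lost too (limma adjusted p = 0.0714 and 0.0594). The count stayed at 1 there because *Tnfaip3* passed (limma adjusted p = 0.0368 and 0.0235). The 4 differences between WT and sh*Pax6* became 2 with a pseudocount of 1 and without the filter, and the 4 between sh*Pax6* PBS and WT PBS became 1 with the spread of those groups alone. With 1 library left out the counts ran from 6 to 8 in WT, 7 to 8 in sh*Pax6*, 0 to 2 in JNK3 KO, 2 to 4 and 6 to 7 for the differences of WT from sh*Pax6* and JNK3 KO, and 1 to 4 under PBS. A lone library left in a group was assumed to vary like the others. Same replicate numbers did not pair the libraries, and the replicate block gave 7, 7 and 0 changed genes in WT, sh*Pax6* and JNK3 KO, 3 and 7 differences between responses, and 3 and 0 under PBS. The counts by the study's own thresholds stayed within 1.5 times.

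Signs changed as follows. On TPM, *Rela* was -0.17 and *Birc3* -0.35 in WT, *Nfkbie* -0.048 in sh*Pax6*, the differences of WT from sh*Pax6* -0.46 for *Rela*, -0.48 for *Nfkb1* and -0.22 for *Nfkbia*, that of WT from JNK3 KO -0.21 for *Rela*, and *Tnfaip3* -0.0036 between JNK3 KO PBS and WT PBS. After the length correction, *Nfkb1* was 0.17 in WT, *Nfkbie* -0.13 in sh*Pax6* and *Bcl3* 0.074 in JNK3 KO, the differences of WT from sh*Pax6* 0.55 for *Nfkb2* and 0.55 for *Tnfaip3*, and those of WT from JNK3 KO 0.27 for *Nfkb1* and 0.36 for *Tnfaip3*. On 75th percentile scaling *Nfkbie* was -0.14 in sh*Pax6* and *Tnfaip3* -0.0070 between the PBS groups of JNK3 KO and WT, and with a pseudocount of 1 *Nfkb2* was 0.19 between WT and sh*Pax6*. With 1 library left out, ranges that crossed 0 were -0.066 to 0.49 for *Birc3* in WT, -0.20 to 0.20 for *Nfkbie* in sh*Pax6*, and in JNK3 KO -0.088 to 0.12 for *Rela*, -0.11 to 0.15 for *Relb*, -0.26 to 0.071 for *Nfkb1* and -0.19 to 0.082 for *Bcl3*. Between WT and sh*Pax6* they were -0.15 to 0.28 for *Rela*, -0.040 to 0.11 for *Nfkb1* and -0.31 to 0.29 for *Nfkb2*, between WT and JNK3 KO -0.19 to 0.15 for *Nfkb1*, and between JNK3 KO PBS and WT PBS -0.30 to 0.084 for *Tnf*.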
